A study of Mus musculus with 11 samples.

Results

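Cytosolic ribosomal protein genes encode the protein parts of the ribosome outside mitochondria. Rows of the gene count table were taken by mouse symbol: names that start with Rpl or Rps and a digit, and Rplp0, Rplp1, Rplp2 and Rpsa, without the Rps6k kinases and Rps19bp1. The symbols gave 137 of the 22369 rows, and 94 of the 137 reached a mean of 1 CPM (counts scaled to a common library size) over the clones, as did 12479 rows of the whole table. The 94 genes comprised 31 proteins of the small 40S subunit, 41 of the large 60S subunit, 3 of the 60S stalk (75 canonical genes in all), 11 paralogues and 8 rows with a pseudogene symbol. Of the 43 rows below the minimum, 40 carried pseudogene symbols, 2 were the paralogues Rpl6l and Rps12l1, and 1 was the canonical gene Rpl23a. Just below the minimum lay Rpl12-ps1 at 0.938 and Rpl34-ps2 at 0.930 CPM, and just above it Rps27 at 1.15 and Rpl31-ps17 at 1.17 CPM.

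The small subunit decodes the message and the large subunit forms the peptide bond, and 1 copy of almost every protein sits on each ribosome. The stalk, Rplp0 with Rplp1 and Rplp2 dimers, brings elongation factors to the ribosome. The mRNAs of these genes usually start with a C inside a run of pyrimidines, the terminal oligopyrimidine (TOP) motif, through which mTORC1 and the RNA-binding protein Larp1 set their translation. Mouse embryonic stem (ES) cells divide fast and make ribosomes at a high rate.

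The data were RNA-seq libraries of 11 clonal lines, numbered 16 to 26, with 1 library each. All came from EBRTcH3, a mouse ES cell line that expresses the tetracycline-controlled transactivator from the ROSA26 promoter. The parent cells had received a barcoded piggyBac library of mouse PGK promoter reporters with its transposase, were sorted for high eGFP, and were picked as single colonies, so that each line is 1 clone with several reporter integrations. All clones were kept in medium conditioned by BRL cells with leukemia inhibitory factor, the MEK inhibitor PD0325901 and the GSK-3 inhibitor CHIR99021, and no clone without reporters was analysed here. The libraries held 10846005 counts (clone 16) to 16868500 (clone 23). All 10 ES cell identity genes in the marker list were expressed, with a summed level of 8361 to 10194 CPM. The 10 fibroblast markers summed to 11.1 to 28.4 CPM and the 10 liver markers to 11.3 to 26.7 CPM, with Alb, Fgb and Serpina1a at 0 in every clone. The 11 markers of primitive endoderm, a cell type that ES cells can give rise to, summed to 402 to 747 CPM, and Gata6, Sox17 and Foxa2 stayed below the minimum of 1 CPM. Runs of neighbouring genes shifted together in several clones, and some of these shifts were shared: a part of chromosome 15 in clones 16 to 19, a part of chromosome 14 in clones 16, 17 and 19, and a part of chromosome 1 in clones 20 and 23. Clones that share such a shift may not be independent, and p-values here measure the spread between single libraries of clones.

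Promoter sequences were taken from RefSeq (GRCm38.p6), which held 76 starts for 64 of the 94 genes. A TOP start was defined as a run of at least 5 pyrimidines, counted from its first C, that spans the annotated first base. It was present at 27.6% of the genes' starts and at 8.02% of all 32851 RefSeq promoters. The lines below show 6 of these starts, 20 bases on either side of the border at the annotated start and on the strand of the gene. Capitals mark the pyrimidine run from its first C, and in Rpl28 the base before them is a T. They were chosen as examples of the element, which 21 of the 76 starts held by this definition.
Rpl15, chr14:18270967-18271006, minus strand: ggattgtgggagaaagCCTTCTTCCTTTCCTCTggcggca
Rpl28, chr7:4792945-4792984, plus strand: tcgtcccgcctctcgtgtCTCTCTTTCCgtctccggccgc
Rpl35, chr2:39005112-39005151, minus strand: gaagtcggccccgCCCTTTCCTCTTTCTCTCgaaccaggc
Rps10, chr17:27635225-27635264, minus strand: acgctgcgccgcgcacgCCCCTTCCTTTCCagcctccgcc
Rps18, chr17:33955646-33955685, minus strand: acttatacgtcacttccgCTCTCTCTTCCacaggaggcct
Rps6, chr4:86857348-86857387, minus strand: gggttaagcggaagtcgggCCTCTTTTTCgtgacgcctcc

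The same promoters, read from 250 bases before to 50 after the start, were searched on both strands for CCGGAAG, the core bound by ETS factors. It was found in 35.5% of the genes' promoters, in 8.86% of all promoters and in 18.3% of promoters of other genes of at least 100 CPM. AGATGGC (YY1) was found in 13.2%, against 6.40% of all promoters and 8.15% of those of the other abundant genes. CACGTG (E-box) was found in 10.5%, above the 7.15% of all promoters and below the 12.2% of the other abundant genes. GGGCGG (Sp1) was found in 60.5%, above the 35.7% of all promoters and below the 69.2% of the other abundant genes. TATAAA between 40 and 20 bases before the start, on the gene's strand, was found in 1.32%. Its share was 1.91% of all promoters and 0.943% of those of the other abundant genes. The lines below show CCGGAAG in capitals beside the starts of Rpl11 and Rpl31, canonical genes of the 60S subunit, and of the paralogue Rps27l.
Rpl11, chr4:136053374-136053413, minus strand: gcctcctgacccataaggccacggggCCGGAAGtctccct
Rpl31, chr1:39367831-39367870, plus strand: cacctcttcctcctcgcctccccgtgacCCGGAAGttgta
Rps27l, chr9:66946066-66946105, plus strand: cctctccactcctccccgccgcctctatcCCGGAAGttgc

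Levels are given as CPM on TMM-scaled library sizes and, between genes, per kb of 1 annotated transcript. The 94 genes summed to 34161 ± 2654 CPM (SD, n = 11), or 3.08% to 3.86% of each library's counts in the gene count table. The sum was lowest in clone 16 at 31563 CPM, had a median of 33150 CPM and was highest in clone 26 at 39671 CPM, a range of 1.26-fold. The canonical genes had a median of 261 CPM per kb, against 11.4 CPM per kb over the 12346 tested rows with a transcript length. Of the 100 highest rows by CPM per kb, 34 were ribosomal protein genes. The level was uneven among them: the 10 genes with the highest CPM held 53.9% of the sum.

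In the 40S subunit the median level was 374 CPM per kb. Rps21 and Rps15 were among the highest, at 1683 and 1663 CPM per kb. Rps21 was at 534 CPM in the lowest clone (19), 660 at the median and 783 in the highest (26), and Rps15 at 735 CPM in the lowest clone (18), 852 at the median and 916 in the highest (26). At the other end, Rps27, a zinc finger protein of the subunit's outer face, was counted at 0.520 to 1.83 CPM (median 1.05), and Rps23, a protein of the decoding centre, at 4.08 to 7.23 CPM (median 5.32). Per kb, Rps27 was at 3.34 CPM and Rps21 at 1683 CPM, although the encoded proteins sit on the ribosome in equal number.

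In the 60S subunit without the stalk the median was 144 CPM per kb and the range 5.59 to 3045. Rpl8, which lies beside the peptidyl transferase centre, was the highest of all 94 genes by transcript length, at 3045 CPM per kb; its CPM was 2078 in the lowest clone, 2404 at the median and 3639 in the highest. Rpl32 followed at 2733 CPM per kb, and Rpl4, which lines the exit tunnel, at 2549. The lowest 60S levels were those of Rpl29 at 5.59 and Rpl5 at 7.21 CPM per kb. The 3 stalk genes lay closer together: Rplp1 at 1585, Rplp0 at 495 and Rplp2 at 471 CPM per kb. The 5 lowest of all 94 genes by this measure were 4 pseudogene symbols (Rps2-ps10, Rpl10-ps3, Rpl9-ps6 and Rpl13a-ps1) and Rpl3l, a paralogue known from muscle, at 2.71 CPM per kb. Levels per kb depend on the transcript chosen, which was 5130 nt long for Rps15a and 3706 nt for Rps20, and would be understated there if the cells use shorter forms. Per kb of coding sequence, a measure chosen after seeing the data and available for 85 of the genes, their median was 362 CPM against 172 CPM per kb of transcript. The order changed as well: Rps20 was the highest at 4989 CPM per coding kb, followed by Rpl41 (4289), Rpl32 (3488) and Rpl23 (3475), with Rpl8 the fifth at 3361.

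Many ribosomal protein genes have processed copies elsewhere in the genome, and no source used here gives how reads that match several genes were counted. The share of each transcript's 50-letter windows that occur in no other GENCODE vM21 gene was therefore set beside its level. Over the 75 canonical genes the level per kb rose with this share (Pearson r = 0.46 on log values, Spearman rho = 0.46, across genes). The 18 genes with under 25% unique windows had a median of 111 CPM per kb, the 23 genes between 25% and 50% had 198, the 25 genes between 50% and 75% had 387, and the 9 genes above 75% had 1047. Rps27 had 1.35% unique windows and shared windows with 9 other genes, whereas Rpl8 had 92.1%. Low counts of genes with few unique windows are therefore uncertain as expression levels, and so are pseudogene rows such as Rps13-ps1, at 51.8 to 76.0 CPM with 12.1% unique windows. Rpl29 and Rps23, with 33.4% and 51.6%, were low as well.

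**Figure D1:**
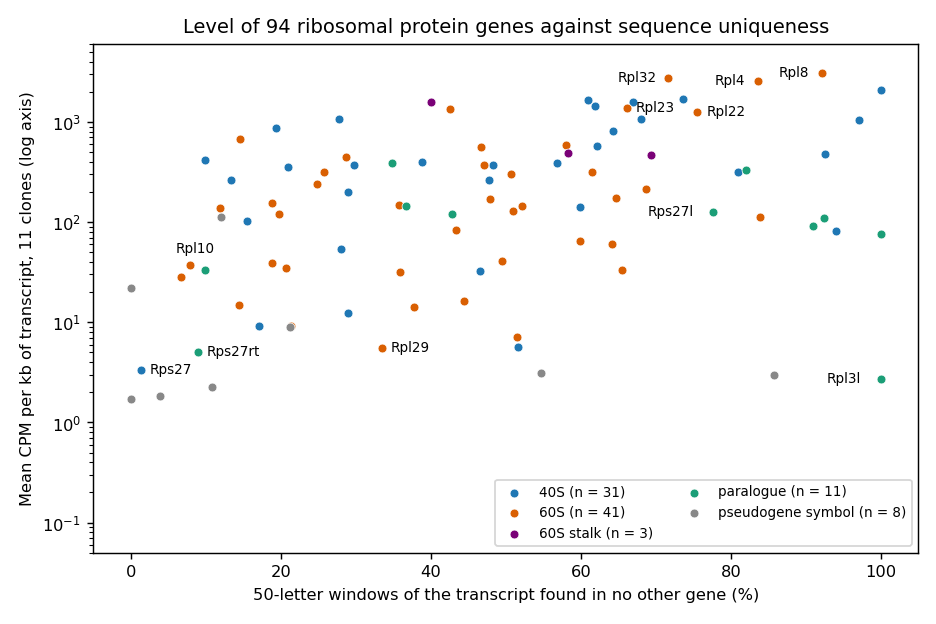
Mean CPM per kb of transcript (log axis) of each of the 94 genes against the share of its 50-letter windows found in no other gene (percent); colours mark the 40S, 60S, stalk, paralogue and pseudogene symbol groups. Genes with few unique windows reach down to 1.70 CPM per kb. The 3 highest genes, Rpl8, Rpl32 and Rpl4, have 71.6% to 92.1% unique windows. Rpl3l and Rpl13a-ps1, both among the lowest genes, have 100% and 85.8%.

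Rps27 and Rps27rt, named as its retrogene copy, share sequence from their starts on. The annotated starts share a run of 38 bases, shown in capitals as far as the lines reach, with 15 bases before the start and 25 from it. They were chosen because Rps27 is the lowest canonical gene that passed the minimum.
Rps27, chr3:90213624-90213663, minus strand: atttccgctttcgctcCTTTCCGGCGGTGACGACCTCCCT
Rps27rt, chr9:114982715-114982754, minus strand: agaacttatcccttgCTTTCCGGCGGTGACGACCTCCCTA

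The ribosomal protein genes moved together over the clones, by a small amount. For each gene and clone the shift is the difference of log2(CPM + 1) from that gene's median over the 11 clones. In clone 26, 85 of 94 genes were above their own median, against 44.3% of all tested rows, and the median shift was 0.22. In clone 17 it was 71 of 94 (47.5% of all rows) with a median shift of 0.13, and in clone 25 it was 60 of 94 (46.1%) with 0.13. At the other end, 13 of 94 genes were above their median in clone 16 (47.0% of all rows; median shift -0.12) and 8 of 94 in clone 18 (43.6%; -0.09). Clone 26 held the highest value of 49 of the 94 genes and clone 16 the lowest value of 31, against 9.86% and 12.3% of all tested rows. Clone 16 was also the library with the fewest counts, and the part of depth in its low values was not tested. Of the 8 primitive endoderm markers that reached the minimum, 4 were variable in the test described further on (Col4a1, Col4a2, Lama1 and Sparc). Col4a1 and Col4a2, basement membrane collagens, were lowest in clone 26, at 6.44 and 3.71 CPM, and highest in clone 16, at 48.9 and 34.2 CPM (medians 30.3 and 15.9). Sparc was at 164 CPM in clone 26 and at its median of 273 CPM in clone 16, whereas Lama1 was above its median of 201 CPM in both, at 270 and 230 CPM. The whole list summed to 472 CPM in clone 26 and 621 CPM in clone 16 (median 512), with 4 and 6 of its 11 genes above their median, and its part in the ribosomal protein shifts was not tested.

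Both subunits took part. The median shift in clone 26 was 0.21 for the 40S genes and 0.23 for the 60S genes with the stalk, and in clone 16 it was -0.12 and -0.14. Over the 11 clones, the median Pearson r was 0.57 among pairs of 40S genes, 0.51 among pairs of 60S and stalk genes and 0.50 between the subunits. Over all 4371 pairs of the 94 genes it was 0.39, against 0.00 over all pairs of tested rows and 0.04 over pairs of other genes of at least 100 CPM. Pairs share libraries, scaling and genes, so these values are a description with no p. Paralogues and pseudogene symbols lowered the figure: their own pairs had medians of 0.10 and 0.10, and the 75 canonical genes alone 0.51. Without clones 17, 25 and 26, an alternative chosen after seeing the data, the median over the 94 genes was 0.21.

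**Figure D2:**
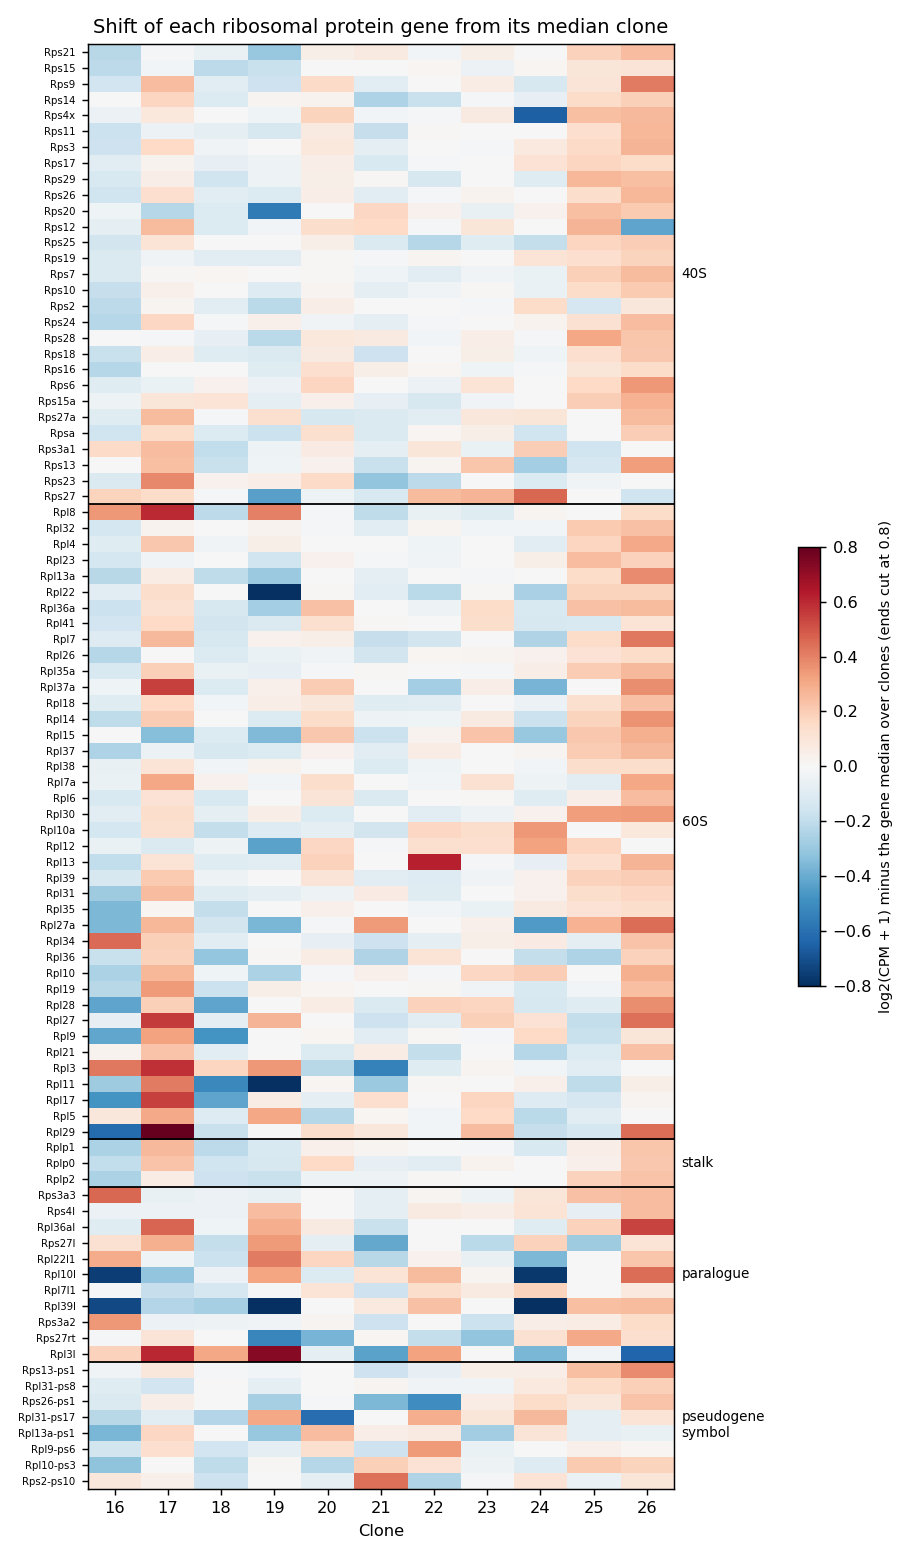
Shift of log2(CPM + 1) from the gene's median clone for 91 of the 94 ribosomal protein genes (rows, by group and falling CPM per kb) in 11 clones (columns); red is higher, blue lower. Clone 26 is red in most rows (85 of 94 genes above their median) and clone 16 blue in most (13 of 94), with single genes such as Rpl22 in clone 19 and Rps4x in clone 24 standing out.

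The genes closest to the rest were Rps26, Rps9 and Rpl13a, with median r of 0.69, 0.66 and 0.66 with the other genes. Rps26, which contacts the mRNA at the exit channel, was at 348 CPM in the lowest clone (16), 389 at the median and 469 in the highest (26). Rpl13a, known also as part of a translational silencing complex, was at 1159 CPM in the lowest clone (19), 1422 at the median and 1847 in the highest (26). In both genes clone 26 lay above all other clones, and the low end was held by clones 16 and 19. Rpl3l (-0.22), Rps27 (-0.07), Rps12 (-0.06) and Rpl3 (-0.04) had the lowest median r. Rps12, a 40S protein, was at 150 CPM in clone 26, its lowest clone, with a median of 201 and a highest value of 243 CPM, so clone 26 was low in Rps12 and high in most of the others.

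Genes with and without a TOP start were set side by side, with no test. The 20 canonical genes with one had a median r of 0.54 with the other members and a median shift of 0.25 in clone 26, and the 36 with a RefSeq promoter but no TOP start had 0.50 and 0.21. Their median levels were 163 CPM per kb with a TOP start and 314 CPM per kb without. For CCGGAAG the 24 genes with it had 0.54 and 0.21, and the 32 without it 0.50 and 0.25, with median levels of 193 and 307 CPM per kb.

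Other sets were measured the same way. The 19 other TOP and translation factor mRNAs in the list, among them Eef1a1, which delivers tRNAs to the ribosome, and Eef2, which moves the ribosome along the message, had a median pair r of 0.44 and ranged from -0.16 in clone 24 to 0.30 in clone 26. Eef1a1 was at 10865 CPM in the lowest clone (19), 11743 at the median and 15031 in the highest (26). Ribosome biogenesis factors (34 genes, median pair r 0.31) ranged from -0.12 in clone 21 to 0.15 in clone 24. Their median shift in clone 26 was 0.12, with 31 of the 34 genes above their median, as many as in clone 24. In clones 16 and 18 it was -0.11 and -0.12. Initiation factors (23 genes) had a median pair r of 0.16, RNA polymerase I and its factors (12 genes) -0.05 and mTORC1 and TOP regulators (16 genes) 0.01. The mRNAs are short, and the 48 other genes of at least 100 CPM with transcripts under 1000 nt had a median pair r of 0.21 and scores from -0.13 in clone 21 to 0.12 in clone 17. In clone 26 these short genes had a median shift of 0.11 and in clone 16 of 0.04, while the 2479 longer abundant genes had 0.01 and 0.00. The part of transcript length in the shifts was not tested.

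The spread of single ribosomal protein genes over the clones was small. The median SD of log2(CPM + 1) was 0.16 for the 94 genes and 0.24 for all tested rows. Among genes of at least 100 CPM it was 0.14 for the 52 ribosomal protein genes and 0.18 for the 2535 others. Among the steadiest were Rpl38, known for its part in the translation of Hox mRNAs, at 57.2 to 68.3 CPM (median 61.8, SD of log2 0.08), and Rps19, a gene mutated in Diamond-Blackfan anaemia, at 274 to 336 CPM (median 296, 0.09). No clone lay far from the others in either gene. The widest spreads were those of Rpl39l (0.61), Rpl3l (0.43), Rpl10l (0.40), Rpl29 (0.40) and Rpl22 (0.34).

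A gene was called variable when its spread over the 11 clones exceeded the trend of all rows at its level (edgeR goodness-of-fit test, Benjamini-Hochberg adjusted p under 0.05 over all 12479 rows). Of the 94 genes 1 was called, Rpl39l, where 7.68% of all tested rows were, and 2 passed an unadjusted p of 0.05, where 13.1% of all rows did. Rpl39l is a paralogue of the exit tunnel protein Rpl39 and is best known from testis. It was at 21.7 CPM in clone 24, had a median of 70.1 CPM and reached 83.6 CPM in clone 26 (edgeR adjusted p = 0.00012). Clones 24, 19 and 16 were the low ones, at 21.7, 34.2 and 42.2 CPM, and the other 8 lay between 58.2 and 83.6 CPM. Without clone 24 the edgeR adjusted p was 0.11. All of the 50-letter windows of Rpl39l were unique.

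Rpl10l, the paralogue of the X-linked Rpl10 and also known from testis, was at 67.3 CPM in clone 24, 115 at the median and 158 in clone 26. Clones 24 and 16 were low at 67.3 and 68.1 CPM, and the next, clone 17, stood at 92.6 CPM. Its edgeR adjusted p was 0.097. It was 0.042 without clone 19, and 0.46, 0.39 and 0.25 without clones 24, 16 and 26. Rpl10l and Rpl39l were thus both lowest in clone 24 and highest in clone 26, but differed in clone 19, where Rpl10l was the second highest of the 11 clones and Rpl39l the second lowest.

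Each clone was also tested against the other 10 (edgeR quasi-likelihood test, adjusted over all 137269 pairs of row and clone); a call says only that the library of 1 clone stands outside the range of variation among the rest. Of the 1034 pairs of a ribosomal protein gene and a clone 1 was called, where 0.213% of all pairs were, and 45 (4.35%) had an unadjusted p under 0.05, where 5.92% of all pairs did. The called pair was Rpl22 in clone 19. Rpl22, a 60S protein that also binds other RNAs, was at 306 CPM in clone 19, 631 at the median and 715 in the highest clone. Clone 19 lay alone, with the other 10 between 528 and 715 CPM. The log2 difference was -1.04 ± 0.18 (SE; edgeR adjusted p = 0.039). Leaving out 1 of the other clones moved the edgeR adjusted p to 0.035 to 0.078. It missed the threshold without clones 18 (0.072), 20 (0.075), 21 (0.066), 23 (0.078) and 25 (0.052), and passed it without each of the remaining 5.

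With the DESeq2 Wald test, which called 1.05% of all pairs, 5 pairs of these genes were called: Rpl22 in clone 19, Rps4x and Rpl39l in clone 24, Rps20 in clone 19 and Rpl13 in clone 22. Rps4x, the X-linked 40S protein, was at 657 CPM in clone 24, its lowest, and at 1001 to 1237 CPM in the other 10. The log2 difference was -0.73 ± 0.15. Rps4x was called there by the DESeq2 test and not by edgeR's. Its 10 nearest tested neighbours on the X chromosome had a median shift of 0.04 in clone 24, from -0.27 to 0.20, and 3 of the 10 were low with it. The other X-linked members, Rpl10, Rpl36a and Rpl39, were at 33.0, 292 and 68.6 CPM in clone 24, each inside the range of the other clones. Rps4x had 27.8% unique windows and shared windows with 11 other genes.

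Rps20, a protein of the 40S head, was at 1215 CPM in clone 19 and at 1533 to 2123 CPM in the others (log2 difference -0.60 ± 0.17, edgeR adjusted p = 0.33, DESeq2 adjusted p = 0.042). It lies on chromosome 4, outside the lowered distal part, and its 8 nearest tested neighbours had a median shift of -0.05 in clone 19. In clone 26, 13 genes were higher than in the other clones at an unadjusted p of 0.05 in edgeR's test (2.91% of all rows were) and 1 was lower, Rps12, where 3.03% of all rows were. In clone 17, 7 were higher (7.4% of all rows) and none lower (6.21%), and in clone 19, 6 were lower (8.52%) and none higher (7.24%). None of these passed the edgeR test after adjustment apart from Rpl22 in clone 19.

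**Figure D3:**
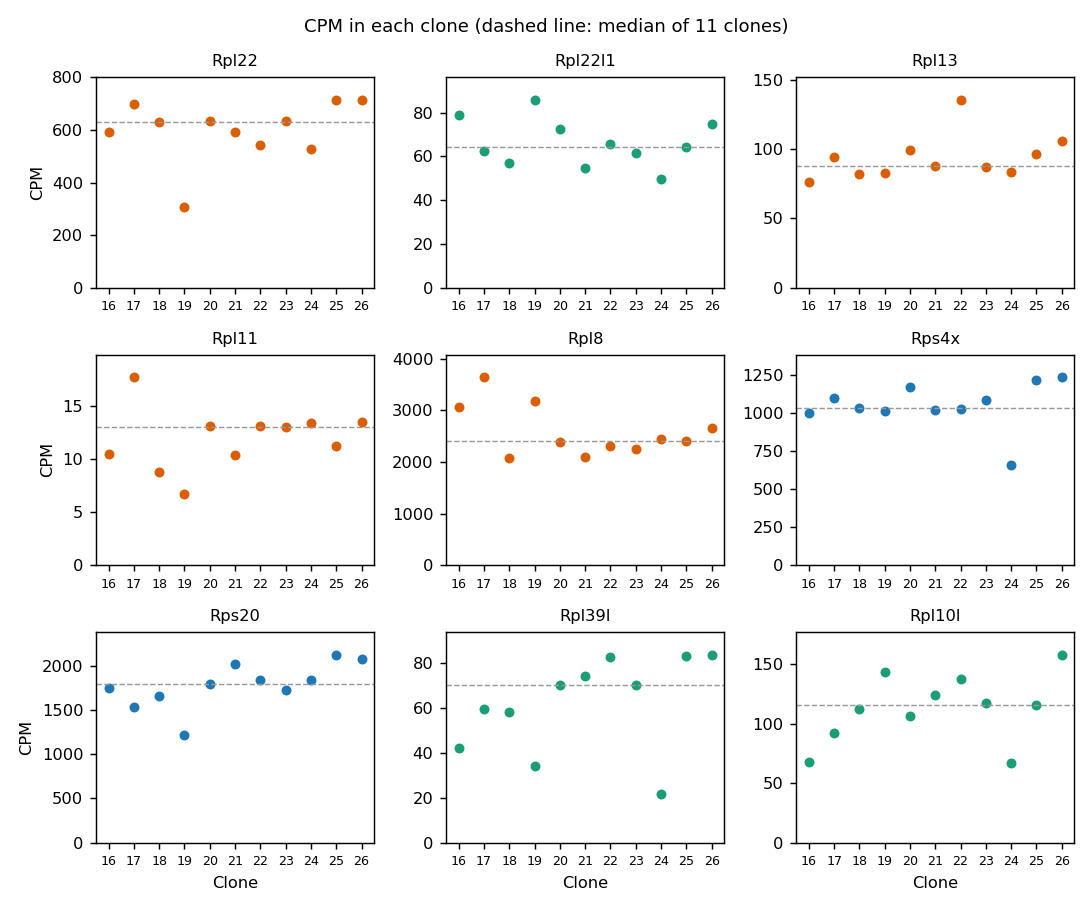
CPM in each of the 11 clones for 9 genes (axes start at 0, dashed line the median of 11 clones); blue is 40S, orange 60S, green paralogue. Rpl22 is lowest in clone 19 (306 CPM), Rps4x in clone 24 (657 CPM) and Rpl39l in clone 24 (21.7 CPM), while Rpl13 is highest in clone 22 and Rpl8 in clone 17.

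Gained or lost chromosome parts were found from the other genes alone. Along the GENCODE vM21 gene order, windows of 25 genes of at least 5 CPM were taken as shifted when their median log2(CPM + 1) lay 0.35 or more from the median clone. Such a shift is a change in RNA over neighbouring genes, and no DNA was measured. The parts held 16 of the 94 genes in 25 combinations of gene and clone, in clones 16, 17, 18, 19 and 22. In 18 of the 25 the gene moved in the direction of its part, with a median of 0.30 where the parts had 0.52. Among the other genes of the same parts, 93.4% of 3158 combinations moved in the direction of the part, with a median of 0.56. Those genes defined the parts, so their direction and median are partly set by the search, unlike those of the ribosomal protein genes.

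Canonical genes and pseudogene symbols differed here. All 14 combinations of the 9 canonical genes moved with their part, with a median of 0.44 against 0.54 for the parts, and 10 of the 14 lay within the quartiles of the other genes. Of the 7 combinations of pseudogene symbols 2 moved with the part, with a median of -0.07, and of the 4 combinations of the paralogues Rpl22l1 and Rps3a2 2 did. This difference between the groups was not tested. Rpl3, Rpl8 and Rpl31-ps8 were each counted in several of the clones 16 to 19, which share a shifted part of chromosome 15. Such repeats of a gene may not be independent. The pseudogene rows concerned, Rpl31-ps8, Rps13-ps1, Rps26-ps1, Rpl9-ps6 and Rpl13a-ps1, had 0% to 21.2% unique windows except Rpl13a-ps1 with 85.8%.

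Distal chromosome 4 was lower in clone 19, with a median shift of -0.93 over the other genes there, and held Rpl22 and Rpl11. The shift of Rpl22 was -1.04, and the median shift of its 10 nearest tested neighbours was -0.998. Rpl11, which with Rpl5 and 5S rRNA can bind Mdm2, was at 6.70 CPM in clone 19, 13.0 at the median and 17.7 in clone 17. Clone 19 was the lowest for Rpl11 too, with clone 18 next at 8.79 CPM, and its log2 difference of -0.90 ± 0.32 was not called (edgeR adjusted p = 0.59). Mtor, the kinase of mTORC1, lies in the same part. It was at 86.6 CPM in clone 19 against a median of 220 CPM, and this was the 1 clone call of the mTORC1 list.

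Chromosome 8 was higher in clone 22, by a median of 0.49 over most of its genes, and among its genes was Rpl13, a 60S protein. Rpl13 was at 136 CPM in clone 22, against a median of 87.7 and a lowest value of 76.2 CPM (log2 difference 0.60 ± 0.15, edgeR adjusted p = 0.22, DESeq2 adjusted p = 0.033). Clone 22 was the highest clone for Rpl13, and the next was clone 26 at 106 CPM. The pseudogene rows Rps13-ps1 and Rps26-ps1 on the same chromosome had shifts of -0.07 and -0.50 in clone 22.

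A part of chromosome 15 was higher in clones 16, 17, 18 and 19 and held Rpl3 in all 4 and Rpl8 in clones 16, 17 and 19. Rpl8 was at 3055, 3639 and 3185 CPM in clones 16, 17 and 19, and at 2078 to 2664 CPM in the other 8 clones. Rpl3, which reaches into the peptidyl transferase centre, was at 25.6, 28.8, 21.4 and 24.3 CPM in clones 16 to 19 and at 12.6 to 19.2 CPM in the other 7. These clones share the part, and neither gene was called in any single clone (edgeR adjusted p for Rpl8 in clone 17 = 0.64). With 14.4% unique windows Rpl3 counts are uncertain as a level. How many other genes separate the clones with the part from the rest was not counted.

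The whole of chromosome 3 was higher in clone 16, by a median of 0.56 over 460 genes, and held Rpl34, Rpl22l1, Rps27 and Rps3a1. Rpl34, a 60S protein, was shifted by 0.45, Rpl22l1 by 0.30, Rps27 by 0.18 and Rps3a1 by 0.15. Rpl34 was highest in clone 16, with a median of 18.7 CPM and a lowest value of 16.6 CPM in clone 21, while most ribosomal protein genes were low in clone 16. The 40S-related Rps3a2 lay in the part of chromosome 14 shared by clones 16, 17 and 19, and its shifts there were 0.35, -0.05 and -0.03. Leaving the genes in shifted parts out raised the median pair r from 0.39 to 0.47. The genes left out included 5 pseudogene symbols and 2 paralogues, and the canonical genes alone had 0.51. The part of this change in composition was not tested.

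**Figure D4:**
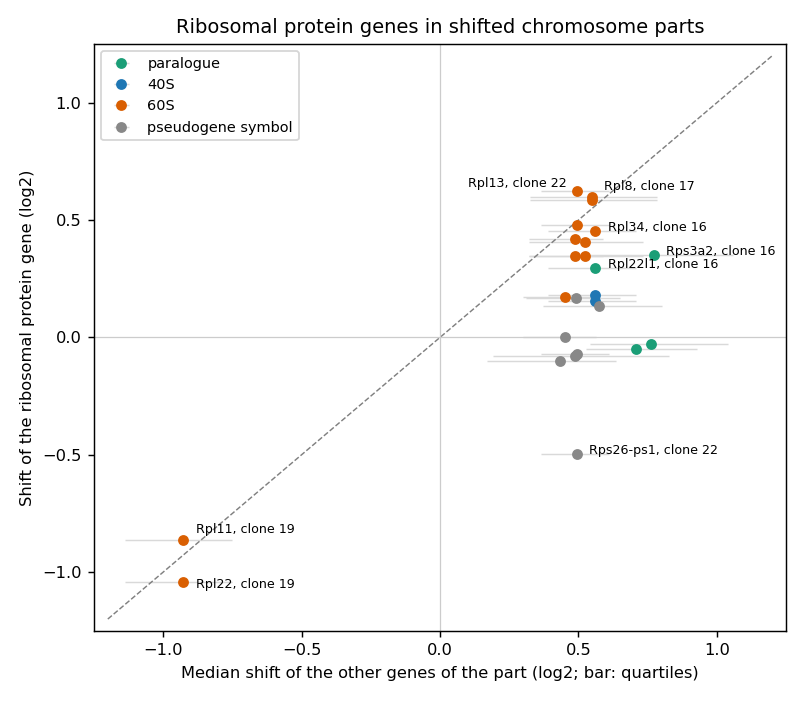
Shift of each ribosomal protein gene (log2, vertical) against the median shift of the other genes of its chromosome part in the same clone (log2, horizontal; grey bars are quartiles); the dashed line marks equal shifts and colours mark the groups. The canonical genes lie on the side of their part, down to Rpl22 in clone 19 at -1.04. In parts that are higher, pseudogene symbols lie from -0.50 to 0.17, and the lowest canonical gene is Rps3a1 in clone 16 at 0.15.

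Paralogues were set beside their parent genes, per kb. Rpl22l1, whose mRNA is known to be held down by Rpl22 in mouse cells, made up 7.17% of the Rpl22 and Rpl22l1 sum in clone 25, 7.69% at the median and 19.4% in clone 19. Clone 19, low in Rpl22, was also the highest in Rpl22l1 at 86.0 CPM (median 64.3, lowest 49.9 in clone 24), followed by clone 16 at 79.1 CPM. Rpl22l1 in clone 19 was not called (log2 difference 0.42 ± 0.20, edgeR adjusted p = 0.86). Rpl39l made up 19.4% of its pair in clone 24, 42.6% at the median and 50.3% in clone 22. Rps4l made up 19.8% to 34.2% of its pair with Rps4x, with the highest share in clone 24, where Rps4l itself stood at 276 CPM against a median of 256.

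In 3 pairs the paralogue had more counts per kb than the parent. Rpl10l made up 74.1% ± 5.94 (SD, n = 11) of the Rpl10 pair, and Rps27l, a paralogue known as a p53 target, 97.4% ± 0.807 of the Rps27 pair. Rps27rt made up 60.6% ± 8.26 of its own pair with Rps27, at 5.11 against 3.34 CPM per kb. The parents Rpl10 and Rps27 had 7.87% and 1.35% unique windows and the paralogues Rpl10l, Rps27l and Rps27rt 92.4%, 77.6% and 8.92%, and the part of shared reads in these shares was not tested. Rpl36al made up 17.9% ± 2.49 of its pair, Rpl7l1 14.3% ± 2.09 and Rpl3l 15.2% ± 3.39.

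Of the 9 paralogues of the list that were tested, Rpl39l was variable and no clone was called; Rpl39l was also the 1 gene of all 94 called with DESeq2's dispersion trend, which called 8.24% of all rows. Of ribosomal proteins outside the symbol rule, Rack1, which sits on the 40S head, was at 2534 CPM in the lowest clone (19), 3008 at the median and 3605 in the highest (26). Fau, which encodes a ribosomal protein fused to a ubiquitin-like part, was at 9.93 to 20.8 CPM, lowest in clone 16 and highest in clone 17. Neither was called by edgeR's goodness-of-fit test, at an unadjusted p of 0.05 or with DESeq2's trend. Of 19 other TOP and translation factor genes 3 were variable (Tpt1, Eef1d and Eef1g; 4 with DESeq2's trend), and Eef1g was called higher in clone 17, at 3314 CPM against a median of 1592. All 3 lie in shifted chromosome parts: Tpt1 in the parts of chromosome 14, Eef1d in that of chromosome 15 and Eef1g on chromosome 19, which was higher in clone 17.

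The counts of the remaining lists stand beside the 7.68% of all rows that were variable. Among initiation factors 0 of 23 were variable by edgeR (1 at an unadjusted p, 0 with DESeq2's trend), and Eif3a, also on chromosome 19, was called higher in clone 17, at 1480 CPM against a median of 940. Among 34 biogenesis factors and among 12 RNA polymerase I genes 0 were variable, also at an unadjusted p and with DESeq2's trend. Among mTORC1 and TOP regulators 1 of 16 was variable, Ddit4, an mTORC1 inhibitor induced by stress, at 58.2 to 335 CPM. Of 11 genes tied to p53 and ribosomal stress 4 were variable, a larger share than the 7.68% of all rows (Cdkn1a, Ccng1, Zmat3 and Trp53inp1; 5 with DESeq2's trend). Clone 26, the highest for ribosomal protein genes, was the highest for Cdkn1a (127 CPM, median 66.2) and Ccng1 (427 CPM, median 216). Trp53inp1 was highest there too, at 448 CPM (median 253). Cdkn1a was almost as high in clone 19, at 119 CPM, where the ribosomal protein genes had a median shift of -0.04. Clone 16, the lowest for ribosomal protein genes, was above the median for Mdm2, Ccng1 (290 CPM), Zmat3, Trp53inp1 (306 CPM), Sesn2 and Bbc3. The same clone was below the median for Trp53, Cdkn1a (42.4 CPM) and Pmaip1 (7.19 CPM). Clone 24, where the ribosomal protein genes had a median shift of 0, was the highest for Mdm2 (210 CPM, median 126), Zmat3, Bax and Bbc3. It came next to clone 26 for Ccng1 (403 CPM) and Trp53inp1 (412 CPM), and was at the median for Cdkn1a. Pmaip1 was at 8.88 CPM in clone 26, below its median of 14.0 CPM. The part of p53 activity in the ribosomal protein values was not tested.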

How the data were processed

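Libraries were made from total RNA with an Illumina TruSeq RNA kit, per the labels' protocols. The authors deposited 1 table of raw read counts per Ensembl gene for 11 clones, labelled as protein coding. Rows with a pseudogene symbol in the name table used here were part of it. Reads were processed with TopHat 1.4.0 and Bowtie 0.12.7, per the submitters' processing notes, which name the builds mm9 and hg19; the counting tool, its use of strand, and its handling of reads that match several genes are stated in none of the sources used here. Symbols came from the reference name table for 20777 of 22369 rows. Library sizes were scaled with TMM (edgeR 4.0.16 in R 4.3.3), rows with a mean of at least 1 CPM were kept (12479), and shifts used log2(CPM + 1). Variable genes were tested with a goodness-of-fit test (negative binomial, 1 mean per gene, trended dispersion), and each clone against the other 10 with a quasi-likelihood test, both adjusted by Benjamini-Hochberg. No replicate library of a clone was analysed here, so a call concerns single libraries. DESeq2 1.42.0 served as an alternative.

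On data simulated from these libraries (12393 genes, 50 genes changed by each fold), the test of single clones found 0 of the genes changed 1.5-fold, 12 changed 2-fold, 47 changed 4-fold and 50 changed 8-fold, and the goodness-of-fit test 0, 6, 42 and 50. Of 111 and 103 simulated calls, 2 and 5 were of unchanged genes. In this simulation, changes of 2-fold or less in 1 clone were thus mostly beyond the reach of these edgeR tests. The DESeq2 tests were not run on the simulated data. The changed genes were drawn from the more abundant rows, and the counts followed the trended dispersion. The reach for genes with low counts was therefore not measured.

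Transcript lengths, gene order and sequence windows came from GENCODE vM21 (GRCm38), and promoters from RefSeq (GRCm38.p6). As the counted build was another one, gene coordinates were used only for order and are printed only for RefSeq promoters. Ribosomal protein genes were left out of the search for chromosome parts. The genes and all lists were chosen with earlier results of these data known. Genes were named by rule: genes called in either edgeR test, the 5 highest and 5 lowest by CPM per kb, the 5 largest and 5 smallest SDs, up to 3 with the largest shift in the clones of highest and lowest score, genes in shifted chromosome parts, paralogues with their parents, genes below the minimum, and the highest and called genes of each list. Genes with the highest and lowest median r, and those called by DESeq2, were added after their values were seen. Some genes that the rule names are not reported here.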

Additional observations from a re-analysis of the deposited data

How the results depend on the processing

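Of the alternatives run, none turned a direction. The count of variable ribosomal protein genes was 1 under each scaling, filter and dispersion trend tried, ranged from 0 to 2 when 1 clone was left out (0 without clone 24, and 2 without clone 19, where Rpl10l was added), and was 0 with paralogues and pseudogene symbols left out. The count of clone calls was 1 under each scaling and filter, 0 to 1 when 1 clone was left out, and 5 with the DESeq2 Wald test. Adjusted p-values with that test were 0.033 for Rpl13, 0.042 for Rps20, 3.7e-05 for Rps4x and 0.013 for Rpl39l. The median pair r was 0.34 to 0.43 under the other scalings, pseudocounts and the restriction to genes with at least 50% unique windows, 0.30 to 0.43 when 1 clone was left out (lowest without clone 26), 0.51 for canonical genes alone and 0.21 without clones 17, 25 and 26. The score of clone 26 stayed between 0.17, with library totals alone, and 0.23. The summed level was 25261 CPM over genes with at least 50% unique windows, and 32854 to 34420 CPM under the other settings. The median level was 147 CPM per kb of transcript and 362 CPM per kb of coding sequence. The number of genes in shifted chromosome parts fell from 16 to 7 with a threshold of 0.5, to 4 for genes with at least 50% unique windows and to 9 for canonical genes alone. The restrictions to unique windows, the canonical genes in chromosome parts, the runs of at least 25 genes, the coding lengths and the 3 clones left out together were chosen after seeing the data. Apart from the settings that took fewer genes or clones by construction, the cause of a changed count was not tested. No paired analysis was possible because there is 1 group of clones. With 1 library per clone, depth and clone cannot be separated. Changes of 2-fold or less were mostly outside the reach of the edgeR tests in the simulation, and the reach of the DESeq2 tests was not measured.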
